A study of Mus musculus with 2 samples.

Results

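The Tfap2 genes encode the AP-2 transcription factors, and the mouse has 5 of them: Tfap2a, Tfap2b, Tfap2c, Tfap2d and Tfap2e. They were chosen by symbol from the GENCODE M21 annotation of mm10, where all 5 were found among 21728 protein-coding genes. Accessible chromatin around them was measured by DNase-seq, in which the enzyme DNase I cuts DNA that nucleosomes do not cover and the cut ends are sequenced. The samples were whole mouse embryos of 11 days in 2 biological replicates, each a pool of males and females of the B6NCrl strain, healthy per the labels. Both replicates have a biosample entry of their own but share a donor entry, and no other age, tissue, genotype or treatment was part of the design. Each replicate gave a list of peaks, which are windows of 150 bp with a score, and a list of hotspots, which are broader stretches of raised cutting with a −log10 q value. With 1 group, the comparisons are between the replicates, between the 5 genes, and between these genes and all others. In a whole embryo, a peak in fewer cells and a weaker peak per cell cannot be told apart.

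AP-2 proteins bind DNA as dimers through a basic and helix-span-helix region, and they favour a GC-rich palindrome. Tfap2a acts in the neural crest, the face and the surface ectoderm, and Tfap2b acts in the neural crest, kidney and sympathetic neurons. Tfap2c is known from trophoblast, germ cells and ectoderm, Tfap2d from the midbrain and retina, and Tfap2e from the olfactory system.

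The replicate 1 list held 204697 peaks and 179603 hotspots, and the replicate 2 list held 231103 peaks and 197152 hotspots, so replicate 2 had 1.13 times as many peaks. Peaks that had 1 bp or more in common with a peak from the other list are called shared, which held for 79.5% of all replicate 1 peaks and 70.3% of all replicate 2 peaks. Of 19 marker genes of embryonic tissues (neural tube, heart, liver, limb, somite, neural crest, surface ectoderm, endothelium and red cells), 19 had a promoter peak in both replicates. Of 6 markers of adult pancreas, spermatids and placenta, 0 did. Among all protein-coding genes, 70.3% had a promoter peak in both replicates. Read depth is unknown, because the lists carry no read counts.

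Tfap2a lies on the minus strand at chr13:40715302-40738376 (23.1 kb) and has 9 annotated transcription start sites (TSSs). Tfap2b lies on the plus strand at chr1:19208914-19238576 (29.7 kb) with 5 TSSs. Its nearest neighbour upstream is Tfap2d, also on the plus strand, at chr1:19103022-19166346 (63.3 kb) with 2 TSSs, so these 2 genes form a tandem pair whose 5'-most TSSs are 106 kb apart. Tfap2c lies on the plus strand at chr2:172549593-172558622, is the shortest of the family at 9.03 kb, and has 6 TSSs. Tfap2e lies on the minus strand at chr4:126716006-126736240 (20.2 kb) with 1 TSS. Distances below are counted from the 5'-most TSS of each gene to the middle of a peak, positive in the direction of transcription. Several noncoding genes overlap the members: Gm26688, Gm47061 and Gm47067 run antisense to Tfap2a, and Gm15825 runs antisense to Tfap2d. DNase-seq has no strand, so a peak where a gene and its antisense partner overlap belongs to neither alone.

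Each gene was given a territory, made up of all bases for which its 5'-most TSS is the closest among those of the protein-coding genes. The Tfap2a territory spans 249 kb between Ofcc1 and Gcnt2, and that of Tfap2c spans 234 kb between Fam209 and Bmp7. Tfap2b has the longest of the 5, 758 kb, reaching towards Pkhd1 on the far side of the gene. The Tfap2d territory is 472 kb, most of it upstream towards Defb41. Tfap2e sits in a gene-dense stretch between Psmb2 and Ncdn, with a territory of 37.9 kb. The median territory of all genes was 47.3 kb.

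Distal peaks are those with no protein-coding TSS within 1 kb. The 5 territories held 99 shared distal peaks, counted as replicate 1 peaks. The best-ranked of each gene, by the mean rank of the score in both lists, is printed here. Sequences are from GRCm38 (mm10), plus strand, 5′ to 3′, and capitals mark matches to any of the 9 motifs described further on.
Tfap2a, chr13:40722836-40722985: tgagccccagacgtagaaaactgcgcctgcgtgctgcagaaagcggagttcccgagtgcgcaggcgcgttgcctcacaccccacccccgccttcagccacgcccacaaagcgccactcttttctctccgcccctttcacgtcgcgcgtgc
Tfap2b, chr1:19241476-19241625: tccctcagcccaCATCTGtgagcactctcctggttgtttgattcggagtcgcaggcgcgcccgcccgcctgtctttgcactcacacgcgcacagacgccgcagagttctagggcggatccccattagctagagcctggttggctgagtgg
Tfap2c, chr2:172728556-172728705: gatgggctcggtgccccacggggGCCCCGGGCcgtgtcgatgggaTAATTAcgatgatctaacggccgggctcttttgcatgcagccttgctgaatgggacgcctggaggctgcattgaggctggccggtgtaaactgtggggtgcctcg
Tfap2d, chr1:19109796-19109945: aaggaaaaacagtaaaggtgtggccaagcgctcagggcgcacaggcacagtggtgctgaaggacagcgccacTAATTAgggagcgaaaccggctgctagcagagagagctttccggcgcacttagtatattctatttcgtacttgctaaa
Tfap2e, chr4:126741576-126741725: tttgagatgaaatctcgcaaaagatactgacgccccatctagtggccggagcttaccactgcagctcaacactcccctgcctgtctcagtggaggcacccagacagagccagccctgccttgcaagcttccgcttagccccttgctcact
The Tfap2c element scored highest of the 5, 135 in replicate 1 and 134 in replicate 2. It lies between genes at +179038 bp, and it holds both a match to the AP-2 palindrome and the homeodomain core TAATTA. The Tfap2a element scored 122 in both replicates and lies in intron 4 at +15465 bp. It holds none of the 9 motifs. The Tfap2e element, at -5411 bp between genes, scored 105 and 111. The Tfap2b element, past the gene end at +32637 bp, scored 100 and 106 and holds a bHLH match. The Tfap2d element, in intron 3 at +6849 bp, scored 85 and 102 and holds TAATTA. Their GC content was 65.3% at Tfap2a, 62.0% at Tfap2b, 63.3% at Tfap2c, 51.3% at Tfap2d and 56.7% at Tfap2e.

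The motifs GCGCANGCG, the core bound by NRF1, and CTAGTGG, part of the CTCF motif, were counted after these sequences had been seen, so their counts are descriptions only. The Tfap2a intron 4 element holds the NRF1 core and the Tfap2e element holds the CTCF part. Over the 99 shared distal peaks, 4 held the NRF1 core (4.04%, against 0.453% of all shared distal peaks), 2 each at Tfap2a and Tfap2c. The CTCF part was in 3 (3.03%, against 3.99% of all).

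**Figure D1:**
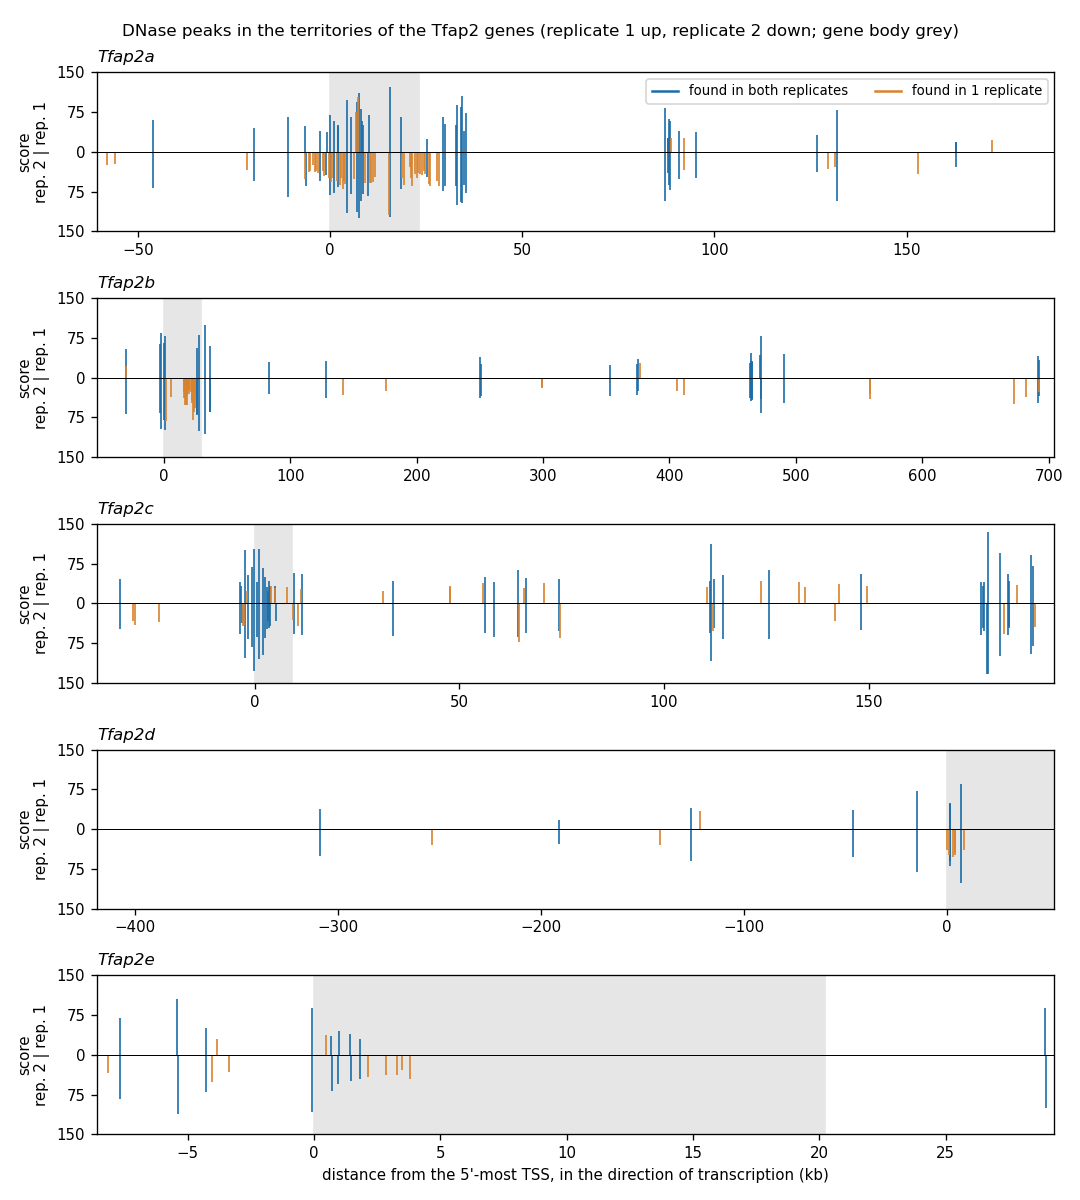
DNase peaks in the 5 territories by distance from the 5'-most TSS (kb, horizontal), with the deposited score as height, replicate 1 upward and replicate 2 downward. Blue lines are peaks found in both replicates and orange lines peaks found in 1, and the gene body is grey; the orange lines of replicate 2 crowd into the gene bodies of Tfap2a and Tfap2b, while Tfap2c shows few there.

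At the promoters, 4 of the 5 genes had a peak within 500 bp of an annotated TSS in both replicates, against 70.3% of all protein-coding genes. The exception was Tfap2d. No replicate 1 peak lay within 500 bp of either of its TSSs, and the nearest was 1249 bp from the 5'-most. Replicate 2 had a peak of score 39 at 11 bp from that TSS and 2 peaks at the second TSS, the better with a score of 49. A promoter peak in replicate 2 alone was found for 1.79% of genes. The hotspots showed the same split, with none within 500 bp of the 5'-most Tfap2d TSS in replicate 1 and a 76 bp hotspot of −log10 q 1.62 in replicate 2. This is close to the lowest value in the lists, 1.3, where the highest possible is 100.

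Tfap2a has the most promoter peaks of the family, spread over 9 TSSs, and 8 of these had a peak within 500 bp in both replicates. The best was at Tfap2a-201, with scores of 112 and 124. Tfap2a-202, whose TSS lies farther upstream, scored 97 and 116. The 5'-most, Tfap2a-203, which the annotation tags as supported by CAGE, scored 70 and 82. The start of Tfap2a-208 had no peak within 500 bp in replicate 1 (nearest at 949 bp) and 3 in replicate 2, the best of score 70. Among the 5'-most TSSs that of Tfap2a also differed most in hotspot width: 374 bp at −log10 q 4.19 in replicate 1 and 4391 bp at the ceiling of 100 in replicate 2.

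Tfap2b had a peak at its 5'-most TSSs, Tfap2b-201 and Tfap2b-204, with scores of 66 and 80. Its other 3 TSSs, which lie inside the gene and include Tfap2b-202, tagged as supported by CAGE, had none in either replicate. The nearest peak to the Tfap2b-202 start was 2043 bp away in replicate 1 and 1643 bp away in replicate 2. Hotspots near the 5'-most Tfap2b TSS were alike in width, 367 bp and 349 bp, and neither covered the TSS itself.

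All 6 Tfap2c TSSs had a peak in both replicates, with scores of 103 and 128 at the 5'-most. The hotspot there was the widest shared stretch of the family: 2763 bp in replicate 1 and 3455 bp in replicate 2, both at the ceiling. Tfap2e scored 89 and 108 at its only TSS, where the hotspot over the TSS was 427 bp wide in replicate 1 and 1722 bp wide in replicate 2, both at the ceiling. At each of the 4 genes with a promoter peak in both replicates, the best promoter score was higher in replicate 2. The median score of all peaks was higher there too, 45 in replicate 1 and 50 in replicate 2. The share of all genes with a higher best promoter score in replicate 2 was not counted.

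The best promoter peaks of Tfap2a and Tfap2e are printed to show how GC-rich they are. That of Tfap2b overlaps an untranslated region and is not shown, and Tfap2d has no shared promoter peak. The Tfap2a peak lies 7.57 kb inside the gene model, in intron 1 near the Tfap2a-201 start, and also within Gm26688. Neither holds a match to the 9 motifs.
Tfap2a, chr13:40730736-40730885: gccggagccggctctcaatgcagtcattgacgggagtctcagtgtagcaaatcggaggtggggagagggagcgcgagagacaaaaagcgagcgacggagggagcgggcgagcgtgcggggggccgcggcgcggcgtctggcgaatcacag
Tfap2e, chr4:126736256-126736405: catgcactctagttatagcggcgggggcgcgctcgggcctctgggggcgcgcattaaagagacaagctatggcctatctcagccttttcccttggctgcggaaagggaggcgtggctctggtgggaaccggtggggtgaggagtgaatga
They were 67.3% and 61.3% GC. Over 500 bp to each side of the 5'-most TSS, the GC content was 61.0% at Tfap2a, 63.7% at Tfap2c and 59.3% at Tfap2e, but 39.7% at Tfap2b and 42.1% at Tfap2d, the tandem pair. The ratio of observed to expected CpG did not follow that division. It was 0.566 at Tfap2a, 0.673 at Tfap2b, 0.689 at Tfap2c, 0.667 at Tfap2d and 0.722 at Tfap2e, all above the median of all genes, 0.558. Tfap2d thus lay within the range of the others in CpG ratio at its 5'-most TSS, with no shared peak there.

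Distal accessibility differed widely between the genes. The shared distal peaks numbered 30 at Tfap2a, 25 at Tfap2b, 30 at Tfap2c, 8 at Tfap2d and 6 at Tfap2e, against a median of 2 per gene. Per 100 kb of territory, Tfap2e had 15.8, Tfap2c 13.0, Tfap2a 12.0, Tfap2b 3.3 and Tfap2d 1.7, where the median gene had 4.12. Of all genes, 6.67% had a denser territory than Tfap2e, 10.7% than Tfap2c and 12.6% than Tfap2a, whereas 55.6% were denser than Tfap2b and 65.6% than Tfap2d. The order of the genes by density thus differs from the order by count, since Tfap2e reaches its density with 6 peaks in a short territory. Among the 5923 territories of at least 100 kb, Tfap2c ranked 358, Tfap2a 480, Tfap2b 3932 and Tfap2d 4838. With only the better-scoring 50% of each list, the 99 shared distal peaks became 54, of which 9 were at Tfap2b, 17 at Tfap2c and 4 at Tfap2d. No test was made of these ranks.

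**Figure D2:**
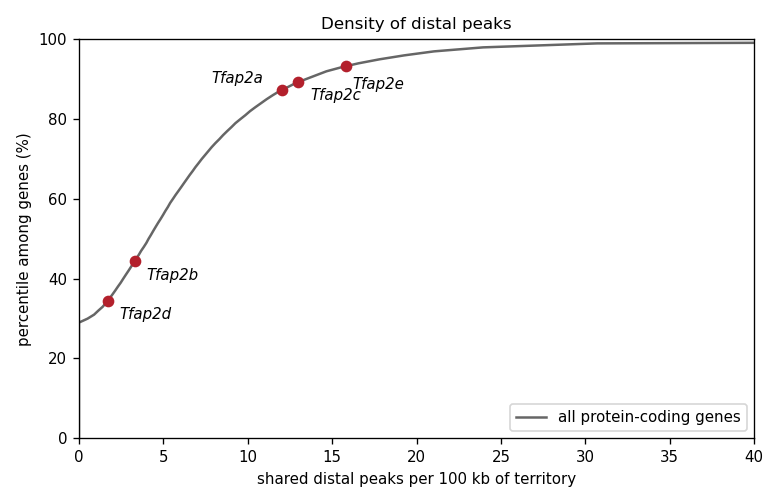
Shared distal peaks per 100 kb of territory (horizontal, drawn up to 40) against the percentile among all protein-coding genes (vertical, %); the grey line is all genes and red points are the Tfap2 genes. Tfap2a, Tfap2c and Tfap2e stand on the upper part of the curve at 12.0, 13.0 and 15.8, and Tfap2b and Tfap2d below the median of 4.12.

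The distal peaks of Tfap2a, Tfap2b and Tfap2c lay mostly past the 3' end of the gene. Tfap2a had 5 upstream, 5 inside the gene and 20 downstream, reaching from -46.2 kb to +163 kb. Tfap2b had 3 upstream, 3 inside and 19 downstream, reaching +692 kb, and Tfap2c had 5 upstream, 2 inside and 23 downstream, reaching +190 kb. Tfap2d was the opposite, with 5 upstream, the farthest at -309 kb, 3 inside and 0 downstream. Its 3' side is limited by Tfap2b, as the midpoint between both TSSs falls inside Tfap2d. The territory rule gives each gene unequal room on its 2 sides, so these counts describe where the peaks are and not a preference for a side. It also uses 5'-most TSSs only. The shared Tfap2b peaks at +691277 and +692357 bp lie nearer to another TSS of a different protein-coding gene, 509257 and 508177 bp away. With territories by any TSS, Tfap2b had 23 shared distal peaks. Within 50 kb of the TSS were 19 of 30 at Tfap2a, 8 of 25 at Tfap2b, 10 of 30 at Tfap2c, 5 of 8 at Tfap2d and 6 of 6 at Tfap2e.

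At Tfap2a the next best distal peaks lay together at +34245 bp (scores 106 and 96) and +33085 bp (88 and 100), both inside the noncoding gene Gm9979. At Tfap2b the next were at -2503 bp between genes (84 and 97) and at +27917 bp in exon 7, the last exon (81 and 100). At Tfap2c they were at +111538 bp (111 and 109) and -2262 bp (101 and 103), both between genes. The Tfap2c scores therefore differed by at most 2 between replicates in all 3 of its best distal peaks.

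At Tfap2d the next best were at -14691 bp inside Gm15825 (72 and 81) and at +1249 bp in intron 1 (49 and 70). At Tfap2e they were at +28949 bp (89 and 101) and -7691 bp (69 and 84), inside the neighbouring genes Psmb2 and Ncdn. Over all shared distal peaks the median score was 51.5 in replicate 1 and 65.5 in replicate 2 at Tfap2a, 41 and 44 at Tfap2b, and 48.5 and 58.5 at Tfap2c. It was 44 and 60.5 at Tfap2d and 59.5 and 77.5 at Tfap2e. For all genes it was 46 and 55, so Tfap2b lay below and Tfap2a, Tfap2c and Tfap2e above that median in both replicates.

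The widest stretch that was a hotspot in both replicates covered the 5'-most TSS at Tfap2c, from -414 to +2348 bp, and at none of the other 4 genes. At Tfap2a it spanned 1309 bp from +6546 to +7854 bp and held the start of Tfap2a-205, 4 replicate 1 peaks and 2 replicate 2 peaks, among them the printed promoter peak. At Tfap2b it lay far downstream, 554 bp from +472220 to +472773 bp. At Tfap2d it was 280 bp, from -126272 to -125993 bp. At Tfap2e it was 1037 bp, from +28499 to +29535 bp, at the edge of the territory towards Psmb2. All 5 had the ceiling value of 100 in both replicates, as did 33.3% of all replicate 1 hotspots and 34.1% of all replicate 2 hotspots. They were picked for width, and the share among the widest shared hotspots of other genes was not counted.

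Territories split the space between neighbours at the midpoint, so an element was given to the nearer 5'-most TSS with no evidence of which gene it serves. The 391 kb between the TSSs of Tfap2c and Bmp7, which encodes a secreted growth factor, held 70 shared distal peaks, 25 on the Tfap2c side and 45 on the Bmp7 side. The 106 kb between Tfap2d and Tfap2b held 6, with 3 on each side. The 1410 kb between Tfap2b and Pkhd1 held 50, with 22 nearer Tfap2b. The 377 kb between Ofcc1 and Tfap2a held 34, of which 25 were nearer Tfap2a, and the 121 kb between Tfap2a and Gcnt2 held 7, of which 5 were.

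The replicates differed most at Tfap2a and Tfap2b. In the Tfap2a territory replicate 1 had 45 peaks and replicate 2 had 84 (64.5 ± 27.6, SD, n = 2). In the Tfap2b territory they had 28 and 59 (43.5 ± 21.9). Tfap2d went from 9 to 16 (12.5 ± 4.95) and Tfap2e from 11 to 17 (14.0 ± 4.24), while Tfap2c had 57 and 54 (55.5 ± 2.12). Replicate 2 was the higher at 4 of the 5 genes, and the share of all territories where it was higher was not counted. By replicate 2 minus replicate 1, among 21728 genes, Tfap2a ranked 15, Tfap2b 33, Tfap2d 1143, Tfap2e 1443 and Tfap2c 20483. Together the territories held 150 and 230 peaks, 1.53 times as many in replicate 2, where the figure for all territories was 1.13.

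**Figure D3:**
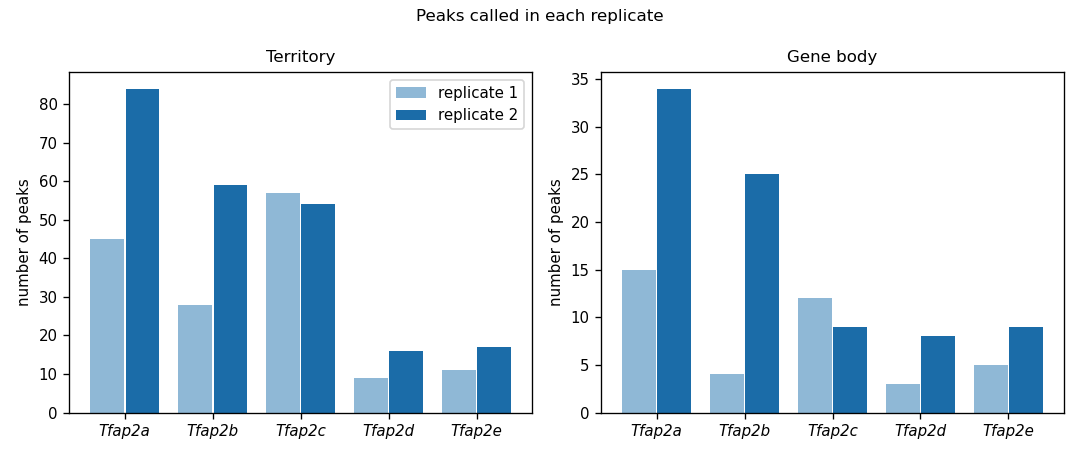
Number of peaks in each territory (left) and in each gene body (right), with light bars for replicate 1 and dark bars for replicate 2. The dark bars are the taller for Tfap2a, Tfap2b, Tfap2d and Tfap2e, and the shorter for Tfap2c.

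Much of that difference lay in the gene bodies. Tfap2a had 15 body peaks in replicate 1 and 34 in replicate 2, and Tfap2b had 4 and 25. Tfap2d had 3 and 8, Tfap2e 5 and 9, and Tfap2c 12 and 9. More body peaks in replicate 2 were thus found at 4 of the 5 genes, against 35.0% of all genes, while 19.0% of all genes had fewer. Summed over the family the bodies held 39 and 85 peaks, a ratio of 2.18 where all genes gave 1.13. The median difference over all genes was 0. Tfap2a had 19 more in replicate 2, a difference that 0.373% of genes reached, and Tfap2b had 21 more, which 0.239% reached. The difference at Tfap2c was -3, which 98.3% of genes reached or passed.

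At every gene but Tfap2c, most replicate 1 peaks were found again in replicate 2, but a smaller share of the replicate 2 peaks was found in replicate 1. Of the replicate 1 territory peaks, 40 of 45 at Tfap2a (88.9%, Wilson 95% interval 76.5 to 95.2), 26 of 28 at Tfap2b (92.9%, 77.4 to 98.0) and 39 of 57 at Tfap2c (68.4%, 55.5 to 79.0) were shared. At Tfap2d 8 of 9 and at Tfap2e 9 of 11 were. Of the replicate 2 peaks, 36 of 84 at Tfap2a (42.9%, 32.8 to 53.5) and 28 of 59 at Tfap2b (47.5%, 35.3 to 60.0) were shared, but 41 of 54 at Tfap2c (75.9%, 63.1 to 85.4). For the family the shares were 81.3% and 53.0%, beside 79.5% and 70.3% of all peaks. Intervals cover counting error only, and peaks close together are not independent.

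The family had 108 replicate 2 peaks with no partner in replicate 1, of which 79 (73.1%) were at Tfap2a and Tfap2b. Their median score was 41 over the family, 49 at Tfap2a and 33 at Tfap2b, where unshared replicate 2 peaks of the whole list had 35. Of the 48 at Tfap2a only 2 lay in a replicate 1 hotspot, and of the 31 at Tfap2b 0 did. Among all unshared replicate 2 peaks, 11.2% lay in one. The best unshared replicate 2 peak of the family, of score 119, lay at +15305 bp in Tfap2a, beside the printed intron 4 peak. The 28 unshared replicate 1 peaks had a median score of 30, and 18 of them were at Tfap2c.

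Many of the replicate 2 peaks followed each other without a replicate 1 peak between them. Tfap2b had a run of 20 such peaks over 23.6 kb, from +1.42 kb to +25.0 kb, that is from intron 1 to intron 6. None lay in an exon by its midpoint, and scores ran from 15 to 82 with a median of 39. In that stretch replicate 2 had 13 hotspots, 7 of them at the ceiling, and replicate 1 had 0. Tfap2a had a run of 12 over 6.19 kb, from +18.6 kb in intron 5 to +24.8 kb past the gene end, with scores from 29 to 65 and a median of 42. Of these, 8 lay in the gene and 5 in an exon, and the stretch held 9 hotspots in replicate 2 and 0 in replicate 1.

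Runs of that length were rare in the genome. Of 44951 runs in replicate 2, 30 were at least as long as that of Tfap2a and 4 at least as long as that of Tfap2b. The longest replicate 2 runs were 5 peaks at Tfap2e, in intron 3, and 3 each at Tfap2c and Tfap2d. Replicate 1 had no run longer than 3 in any of the 5 territories, that one at Tfap2c. Hotspots covered 11.5 kb of the Tfap2a territory in replicate 1 and 30.8 kb in replicate 2, and 6.44 kb and 17.4 kb of the Tfap2b territory. At Tfap2c they covered 17.2 kb and 17.0 kb. Replicate 2 had 1.13 times as many body peaks over all genes and 1.43 times as many in the 19 embryonic marker genes. The part of this in the differences at Tfap2a and Tfap2b was not tested.

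**Figure D4:**
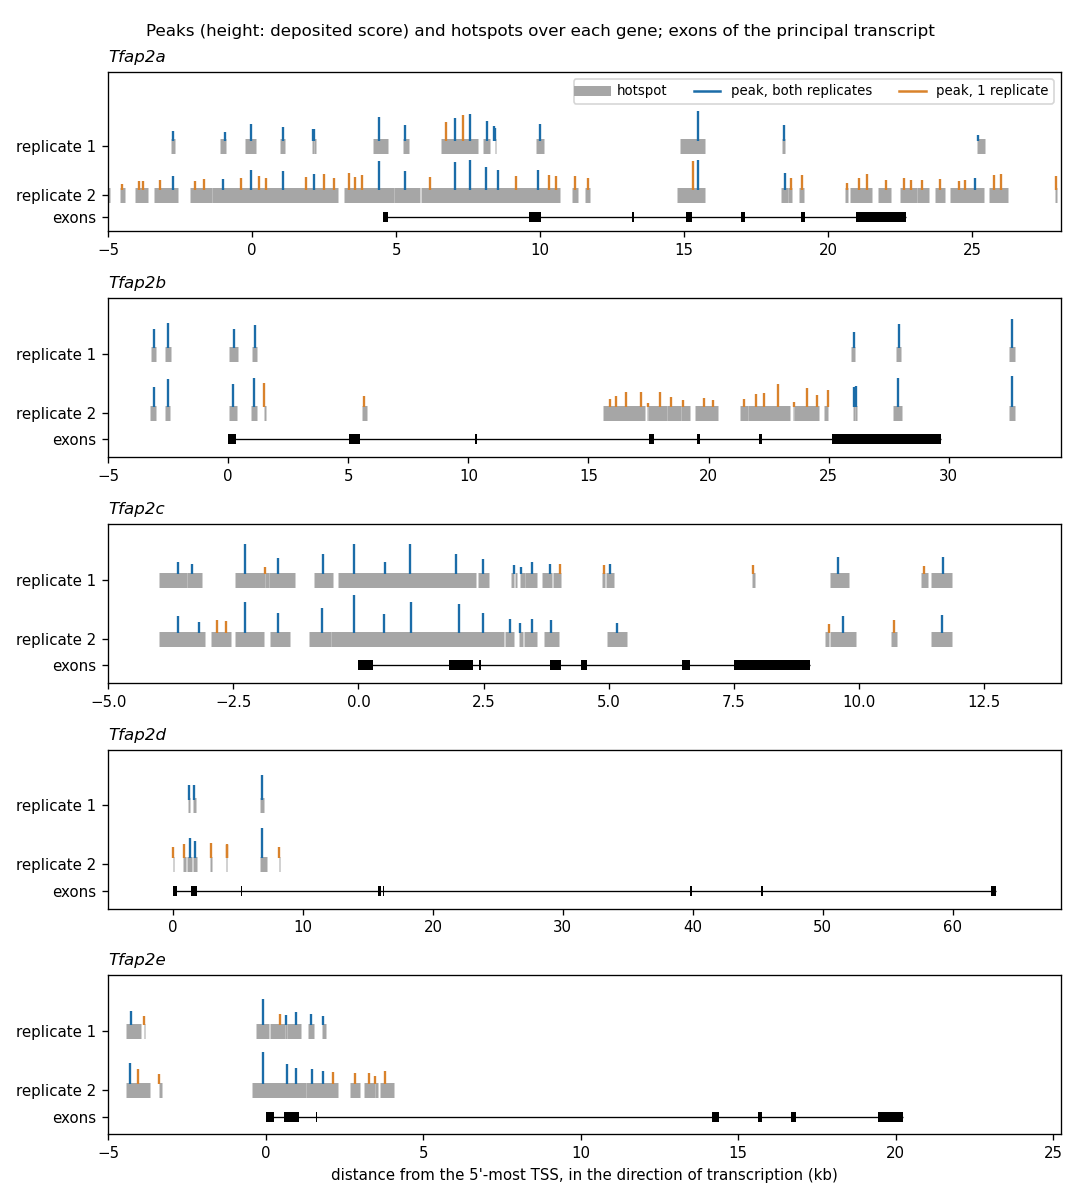
Peaks and hotspots over each gene by distance from the 5'-most TSS (kb), with replicate 1 above replicate 2, grey bars for hotspots, blue lines for peaks in both replicates, orange lines for peaks in 1, and line height for the score. Black boxes are the exons of the principal transcript; the stretch of Tfap2b from +1.42 kb to +25.0 kb carries 20 replicate 2 peaks and no replicate 1 peak, and Tfap2c is covered alike in both.

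The AP-2 palindrome was searched on both strands as GCCNNNGGC, where N is any base. It was found in 8 of the 99 shared distal peaks of the family (8.08%, Wilson 95% interval 4.15 to 15.1), against 6.56% of all shared distal peaks. All shared distal peaks reweighted to the GC content of the family's peaks gave 8.15%, so the family's share lay near the background. Matches were in 2 of 30 peaks at Tfap2a, 2 of 25 at Tfap2b, 3 of 30 at Tfap2c, 0 of 8 at Tfap2d and 1 of 6 at Tfap2e. No peak had more than 1. They are printed as 39 bases of the GRCm38 plus strand, with the match in capitals, since these are the places where the family's own binding motif stands in its distal peaks.
Tfap2a, chr13:40651326-40651364: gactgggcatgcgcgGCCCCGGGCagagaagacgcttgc
Tfap2a, chr13:40704394-40704432: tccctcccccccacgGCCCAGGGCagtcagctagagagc
Tfap2b, chr1:19291691-19291729: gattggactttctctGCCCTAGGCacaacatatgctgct
Tfap2b, chr1:19900204-19900242: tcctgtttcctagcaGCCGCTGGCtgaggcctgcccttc
Tfap2c, chr2:172547322-172547360: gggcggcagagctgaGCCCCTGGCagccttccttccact
Tfap2c, chr2:172559088-172559126: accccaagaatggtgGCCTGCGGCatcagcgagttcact
Tfap2c, chr2:172728564-172728602: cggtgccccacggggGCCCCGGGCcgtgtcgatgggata
Tfap2e, chr4:126734734-126734772: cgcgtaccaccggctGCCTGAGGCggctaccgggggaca
In the order printed, the Tfap2a peaks lie at +87085 bp, between genes, with scores of 83 and 92, and at +33945 bp, in Gm9979, with 84 and 95. The Tfap2b peaks lie at +82797 bp (30 and 30) and +691277 bp (41 and 47), both between genes and both with lower scores. The peak at +691277 bp is the one with a TSS of a different gene nearer to it. The Tfap2c peaks lie at -2262 bp (101 and 103), +9578 bp (58 and 58) and +179038 bp (135 and 134). Thus 2 of the 3 best-ranked distal peaks of Tfap2c hold the palindrome, while none of the 3 best of any other member does. No background was counted for best-ranked peaks. Matches were counted in the replicate 1 peaks. The match of the +9578 bp peak lies outside its replicate 2 partner, chr2:172559196-172559345, which holds 0. The Tfap2e peak lies in intron 2 at +1429 bp (40 and 50). The letters GCCCCGGGC stand in both the +87085 bp peak of Tfap2a and the +179038 bp peak of Tfap2c. Around the 5'-most TSSs the palindrome occurred 1 time each at Tfap2a and Tfap2e and not in the windows of the other genes. The share of all genes with such a match was not counted, so these promoter counts are descriptions only. A match is a string of letters and does not show that the protein was bound.

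The other 8 motifs were counted in the same peaks. TEAD (GGAATG) was in 13.1% of the family's peaks against 11.0% of all, homeodomain (TAATTA) in 5.05% against 3.35%, and the GATA motif, AGATAA, in 6.06% against 5.31%. SOX (ACAAT) was in 15.2% against 19.3%, bHLH (CATCTG) in 12.1% against 18.7%, and MEIS (TGACAG) in 8.08% against 14.3%. NFI (TTGGCA) was in 7.07% against 8.46% and the nuclear receptor element TGACCT in 10.1% against 12.8%. By gene, TEAD was in 8 of 30 peaks at Tfap2a, 3 of 25 at Tfap2b, 1 of 30 at Tfap2c, 0 of 8 at Tfap2d and 1 of 6 at Tfap2e. SOX was in 2 of 30, 8 of 25, 3 of 30, 2 of 8 and 0 of 6. Both motifs were picked for this listing after their values were seen. At Tfap2a 3 pairs of shared distal peaks overlapped, so its 30 peaks lay in 27 separate stretches and its 8 TEAD peaks in 6. No shared distal peaks of the other 4 genes overlapped each other. Mean GC content of the peaks, which bears on such counts, was 53.5% at Tfap2a, 49.5% at Tfap2b, 55.9% at Tfap2c, 51.2% at Tfap2d and 57.8% at Tfap2e. No test was made of these shares.

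**Figure D5:**
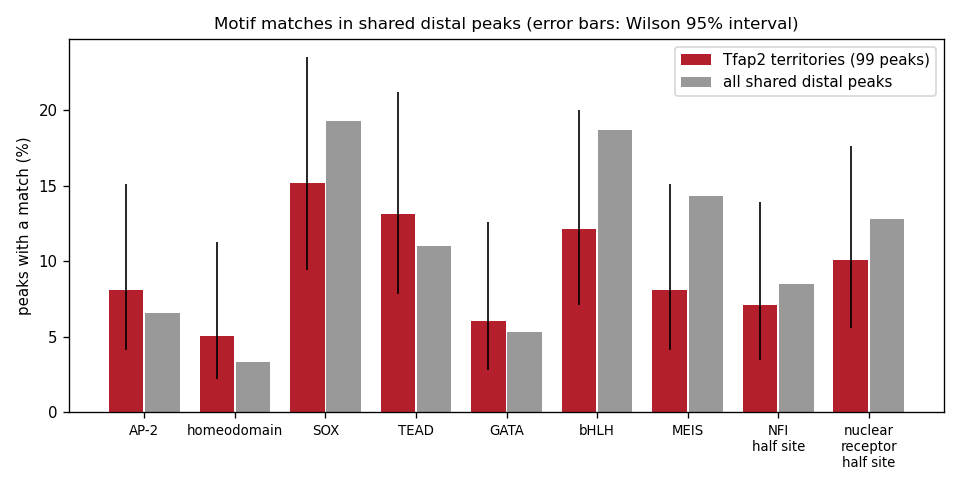
Percent of shared distal peaks with a match to each motif (vertical), in red for the 99 peaks of the 5 Tfap2 territories with Wilson 95% intervals and in grey for all shared distal peaks. For AP-2 the bars stand at 8.08% and 6.56%, and the interval for bHLH, from 7.07 to 20.0, includes the grey value of 18.7%.

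Genes that work with AP-2 proteins had promoter peaks throughout. Of 10 coregulators, 10 had a promoter peak in both replicates, among them Kctd1 and Kctd15, which repress AP-2 activity, and the transcriptional coregulators Cited1 and Cited2. Their median distal density was 7.87 per 100 kb, with 14.8 at Kctd15. Of 11 genes described as AP-2 targets, 11 had one, including Hoxa2, Kit and Erbb2, and their median density was 10.4. Of 10 neural crest factors (among them Sox9, Sox10, Foxd3 and Pax3) 10 had one, with a median density of 10.5. Of 8 epidermal partners (among them Trp63, Grhl1, Grhl2 and Grhl3) 8 had one, with a median density of 5.45. Some genes are in 2 lists, and 70.3% of all genes had a promoter peak in both replicates.

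The median density of the family itself was 12.0. By list, the ratio of replicate 2 to replicate 1 body peaks was 1.26 for the coregulators and 1.09 for the targets. It was 1.26 for the neural crest factors, 1.0 for the epidermal partners and 1.43 for the 19 embryonic marker genes. The Tfap2 genes gave 2.18, with 15 and 34 body peaks at Tfap2a and 4 and 25 at Tfap2b. Tfap2d had 3 and 8 and Tfap2e 5 and 9, but Tfap2c went the other way with 12 and 9. Single genes of the lists also had many more in replicate 2, such as Zic1, with 4 and 14 body peaks. Among the embryonic markers Pax6 did, with 15 and 48. The differences between lists were not tested.

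By 4 measures (territory length, shared distal peaks, shared body peaks and number of shared promoter peaks, standardised over all genes) each member had another gene it resembled most. For Tfap2a this was Otx2, a head and brain homeobox gene, with a territory of 310 kb, 33 shared distal peaks, 15 shared body peaks and 8 shared promoter peaks. Tfap2a had 249 kb, 30, 13 and 8. The nearest gene was Pfkp for Tfap2b, Snx10 for Tfap2c, Csnka2ip for Tfap2d and Fxyd6 for Tfap2e. The distances were 0.239, 0.208, 0.265, 0.264 and 0.0485 in the order Tfap2a to Tfap2e.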

How the data were processed

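DNase-seq peak and hotspot lists of 2 biological replicates were used, which the authors made separately for each replicate from filtered alignments to mm10, per the file headers and accompanying text. The deposited peak score runs from 1 to 150 in whole numbers. The sources used here do not say how it was built, so scores served to rank peaks and were set side by side, and no ratio was taken. The deposited hotspot value is a −log10 of a q value by its file format, with a ceiling of 100 that 33.3% and 34.1% of hotspots had. The sources used here name no aligner, caller or read filter. Depth is unknown.

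Genes came from GENCODE M21 on GRCm38, on chromosomes 1 to 19 and X. Promoter peaks lay within 500 bp of any TSS, and distal peaks had no protein-coding TSS within 1 kb. The shared set consists of replicate 1 peaks overlapping a replicate 2 peak by at least 1 bp. Wilson intervals have a confidence level of 95%. The genes, lists and motifs were chosen with earlier results of these data known. Named were the 5 genes, their neighbours and antisense genes, the first 4 of each list, each gene's best promoter and 3 best-ranked distal peaks, its widest shared hotspot, and the most similar gene. A gene and a sequence chosen in this way are not reported here. Zic1, Pax6, the added motifs and the runs were picked after their values were seen. Python 3.11.15, pandas 2.3.3, numpy 2.4.6 and scipy 1.17.1 were used, and the overlap, territory and motif code was checked on simulated data. With 1 group of 2 libraries, no test was made.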

Additional observations from a re-analysis of the deposited data

How the results depend on the processing

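No paired analysis was possible because the design has 1 group only. The count of genes with a promoter peak in both replicates was 4 and became 5 with replicate 2 alone or with a window of 2500 bp, where Tfap2d joined. The other settings gave 4. The 99 shared distal peaks became 54 with the better-scoring 50% of each list and ranged from 124 to 193 when 1 replicate was left out. An overlap of 75 bp gave 94, a distance of 5 kb 80, and territories by any TSS 97. The share of replicate 1 territory peaks found in replicate 2 was 81.3%, and 53.0% in the other direction. In the first direction an overlap of 75 bp gave 75.3%, the better-scoring 50% of each list 92.1% and territories by any TSS 81.1%. A partner within 150 bp, chosen after seeing the data, gave 87.3% and 57.4%, against 83.0% and 73.8% of all peaks. The AP-2 share of 8.08% was 9.26% with the better-scoring 50%, for which no background was counted, and 7.22% with territories by any TSS. It was 7.26% in replicate 1 alone and 8.29% in replicate 2 alone, beside 6.35% and 6.32% of all distal peaks of these lists. The stricter GCCTNNGGC gave 3.03%, beside 3.65% of all shared distal peaks. Counts per gene stayed within 1.5 times in 21 of 30 settings for distal peaks and 14 of 20 for body peaks. The causes were not tested. Unknown depth limits every statement that a peak was missing from a replicate, and 2 replicates allow no estimate of which one is typical.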

Other observations

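The long runs of replicate 2 peaks at Tfap2a and Tfap2b had counterparts at other genes. Over the genome, 30 runs of at least 10 consecutive unshared replicate 2 peaks spanned at most 10 kb, and replicate 1 had 1 such run. The longest were in the territories of Dlx6 (20 peaks over 9.39 kb), Ptf1a (19 over 8.27 kb), Lhx2 (16 over 6.15 kb), Hmx2 (16 over 6.87 kb), Gm43517 (16 over 8.53 kb) and Nkx2-3 (16 over 9.91 kb). The run of 12 at Tfap2a over 6.19 kb was among the 30, as was one of 11 at Pax6 over 4.59 kb. The run at Tfap2b as a whole was too long, at 23.6 kb, to be counted in this set. However, its peaks other than those at +1497 bp and +5637 bp lay between +15877 bp and +24957 bp, a stretch shorter than 10 kb. Pax6 had 41 territory peaks in replicate 1 and 100 in replicate 2. Cdkn2a had 2 of the 30 runs, with 14 and 11 peaks, and Aatf had 1 with 11. These genes were picked by the length of the run or after their values were seen, and no test was made.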
